A study of Mus musculus with 20 samples.

Results

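Genes for DNA replication and the supply of its nucleotides were examined as a set of 39 in intestinal epithelial cells, the cells that line the gut. The members were chosen by function, from origin licensing to histone supply, and were found on the arrays by gene symbol or RefSeq accession, with older names such as Cdc45l, Orc1l and Orc6l taken as the same genes. All 39 were measured, among 21601 features (genes and unnamed transcripts) tested in all. Each array held the RNA of 1 mouse in a single colour. The mice were healthy and aged 28 days, 4 of each of 5 genotypes, all given strain C57BBL6 in the labels. The groups were wild type mice, mice homozygous for the LPS allele of Trif (labelled Trif LPS/LPS or Trif mut, and called Trif mutants here), and Tlr3 KO, Tlr4 KO and MyD88 KO mice, called knockouts here. TLR3 senses double-stranded RNA and TLR4 bacterial lipopolysaccharide. TRIF and MyD88 are adaptor proteins through which such Toll-like receptors signal. The labels give neither the gut region nor whether mutants and wild type mice were littermates, and name no treatment. Epithelial cells were detached with EDTA and sedimented away from other cells, so each sample is a bulk preparation in which fewer cells of a type and less RNA per cell cannot be told apart.

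In the gut, cells divide in the crypts, and their daughters stop dividing and mature as they move onto the villi. Replication begins when the origin recognition complex, CDC6 and CDT1 load the ring-shaped MCM2-7 helicase onto DNA. CDC45 and the GINS complex turn that ring into an active helicase, primase and the DNA polymerases then copy the strands behind it, and a sliding clamp holds the polymerases on DNA. Transcription of many of these genes rises before S phase under E2F factors, so their mRNAs are common markers of cycling cells.

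Values are log2 signals minus the 75th percentile of the same array, so a value of 0 means a signal equal to that percentile and a difference of -1 means a signal that is lower by 1 on the log2 scale. A probe sets its own level, so levels are not compared between genes. A difference is a mean of 4 arrays minus another, ± SE, and a gene is said to have risen or fallen where limma's moderated test gave an adjusted p below 0.05 over all 21601 features. Same-numbered wild type, Trif mutant, Tlr3 knockout and Tlr4 knockout arrays shared 1 of 4 slides. On each of these slides wild type was at position 1, Trif mutants at 2, Tlr4 knockouts at 3 and Tlr3 knockouts at 4. Position and genotype therefore cannot be told apart among these arrays, within slides or with the slide as a block. MyD88 knockout arrays had slides of their own, another scan and another scanner, and there the scan cannot be told apart from the genotype. The share of probes well above background was 65.1% to 73.6% on the 16 arrays that shared slides and 71.2% to 85.7% on the 4 MyD88 knockout arrays. Xist, which marks an inactive X chromosome, was below the Y-linked gene Eif2s3y on 4 MyD88 knockout arrays, 3 Trif mutant arrays, 1 Tlr3 knockout array and 0 arrays of the other genotypes, so the share of males differed between genotypes. Arrays with Xist above the array's 75th percentile are called Xist-high. Tlr3 signal was -8.79 to -8.26 in Tlr3 knockouts against -1.62 to -1.27 in wild type mice (adjusted p = 1.05e-15), and Myd88 signal was 0.84 to 1.08 in MyD88 knockouts against 1.99 to 2.26 (adjusted p = 1.65e-06). Ticam1, which encodes TRIF, rose in Trif mutants (1.67 to 2.23 against 1.25 to 1.60, adjusted p = 0.000554), which checks nothing about their label. Ticam1 also differed by 0.61 (adjusted p = 0.00178) in Tlr3 knockouts and by -0.45 (adjusted p = 0.00965) in MyD88 knockouts. No Tlr4 value was available here, so the label of Tlr4 knockouts was not checked. The epithelial genes Vil1 and Epcam were far above the 75th percentile on every array, at 7.90 to 8.71 and 5.42 to 6.57.

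The replication genes were lower as a group in Trif mutants and Tlr3 knockouts, and not in Tlr4 or MyD88 knockouts. In Trif mutants 37 of 39 members fell and 1 rose, with a median difference of -1.78 from wild type. Of all features tested in that comparison, 15.8% fell and 28.6% rose, and their median difference was 0.19. In Tlr3 knockouts 35 of 39 members fell and 0 rose (0 rose at an unadjusted p under 0.05 too), with a median of -1.19, where 13.8% of features fell, 24.5% rose and the median was 0.22. In Tlr4 knockouts 0 members fell and 0 rose (limma, adjusted p; also 0 and 0 at an unadjusted p under 0.05), with member differences from -0.39 to 0.16 and a median of -0.12, where 3.11% of features fell and 9.27% rose. MyD88 knockouts had 0 members that fell and 4 that rose (0 and 7 at an unadjusted p under 0.05), with a median of 0.31, which was also the median over all features, of which 12.3% fell and 37.1% rose. The balance of higher and lower features depended on the scaling. Of features called in Trif mutants, 64.4% were higher here, 53.8% after quantile normalization and 52% after median scaling. In Tlr3 knockouts these shares were 63.9%, 48.2% and 35.5%, in Tlr4 knockouts 74.9%, 66.4% and 51.1%, and in MyD88 knockouts 75.1%, 59.3% and 34.1%. Median scaling moved the median of all features to 0.06 in Trif mutants, -0.02 in Tlr3 knockouts, -0.13 in Tlr4 knockouts and -0.10 in MyD88 knockouts. The members' medians under quantile normalization and median scaling were -1.80 and -1.90 in Trif mutants and -1.18 and -1.42 in Tlr3 knockouts.

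**Figure D1:**
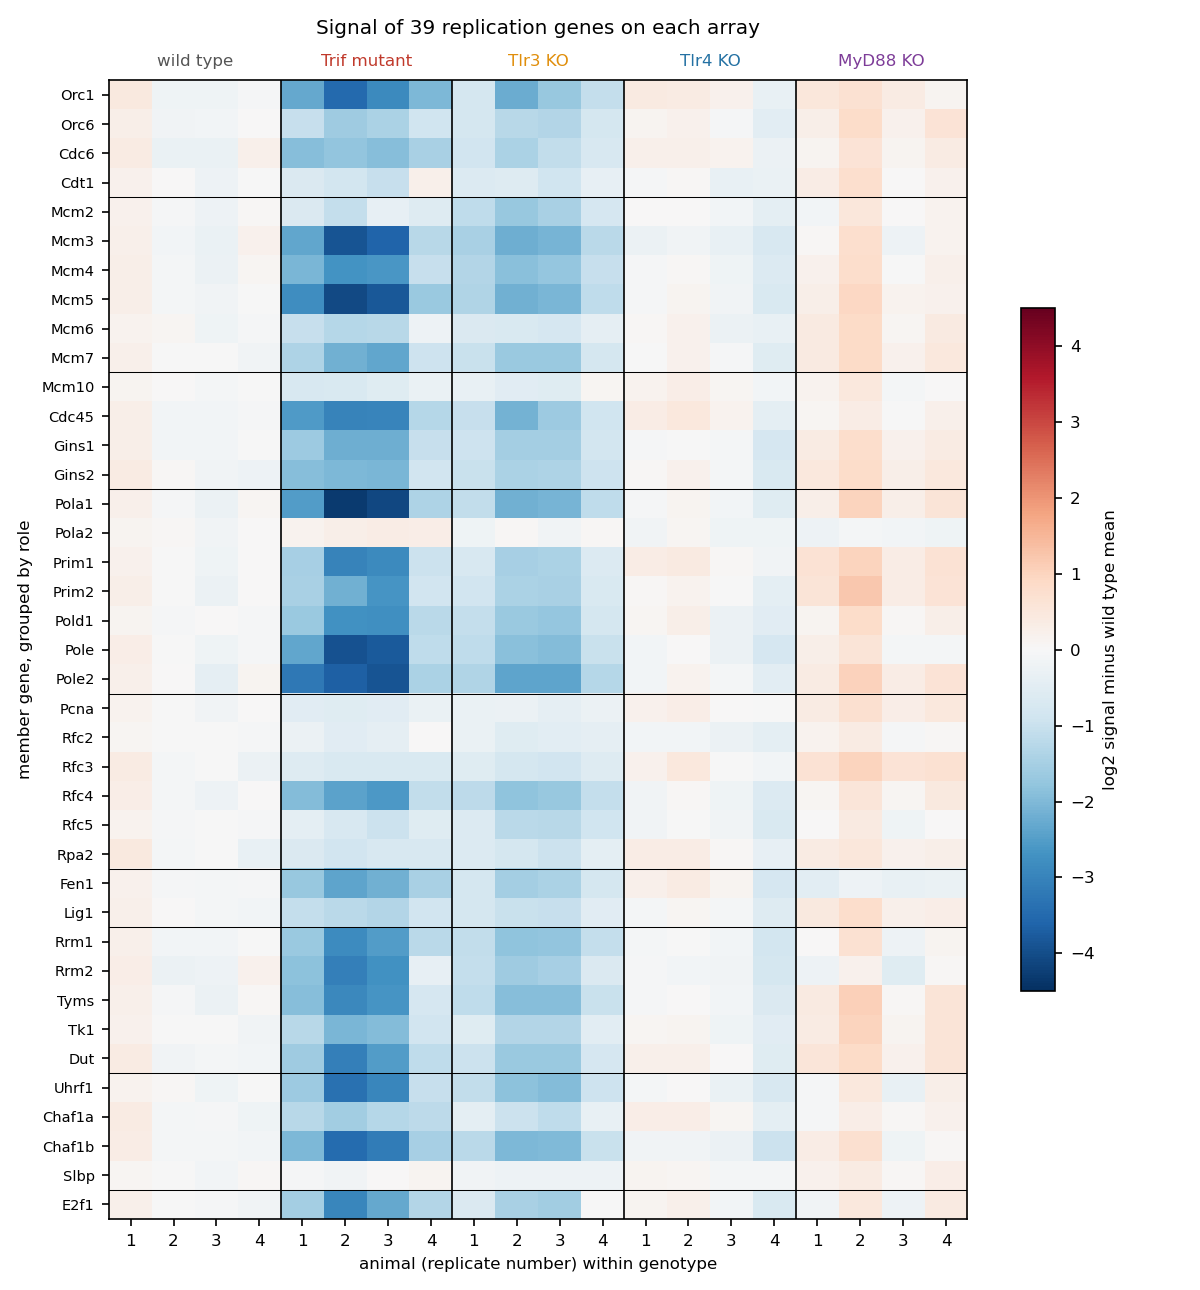
Log2 signal of each of the 39 members (1 row of the map each, ordered by role) on each of the 20 arrays (columns, by genotype and replicate), as the difference from the gene's wild type mean on a colour scale. The Trif mutant and Tlr3 knockout columns are lower for nearly all members other than Pola2 and Slbp, and the fourth Trif mutant array is the least lowered of its group.

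For most members the Trif mutant and the Tlr3 knockout arrays did not overlap the wild type arrays. All 4 Trif mutant values lay below all 4 wild type values for 35 members and above them for 1, against 14% and 24.7% of all features. All 4 Tlr3 knockout values lay below wild type for 36 members and above for 0, against 14.9% and 25.2%. For Tlr4 knockouts these counts were 2 (Chaf1b and Rfc2) and 0, against 7.16% and 13.3%. For MyD88 knockouts 1 member (Fen1) lay wholly below and 7 (Pola1, Prim1, Prim2, Pole2, Pcna, Rfc3 and Lig1) wholly above, against 11.4% and 30.8%.

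**Figure D2:**
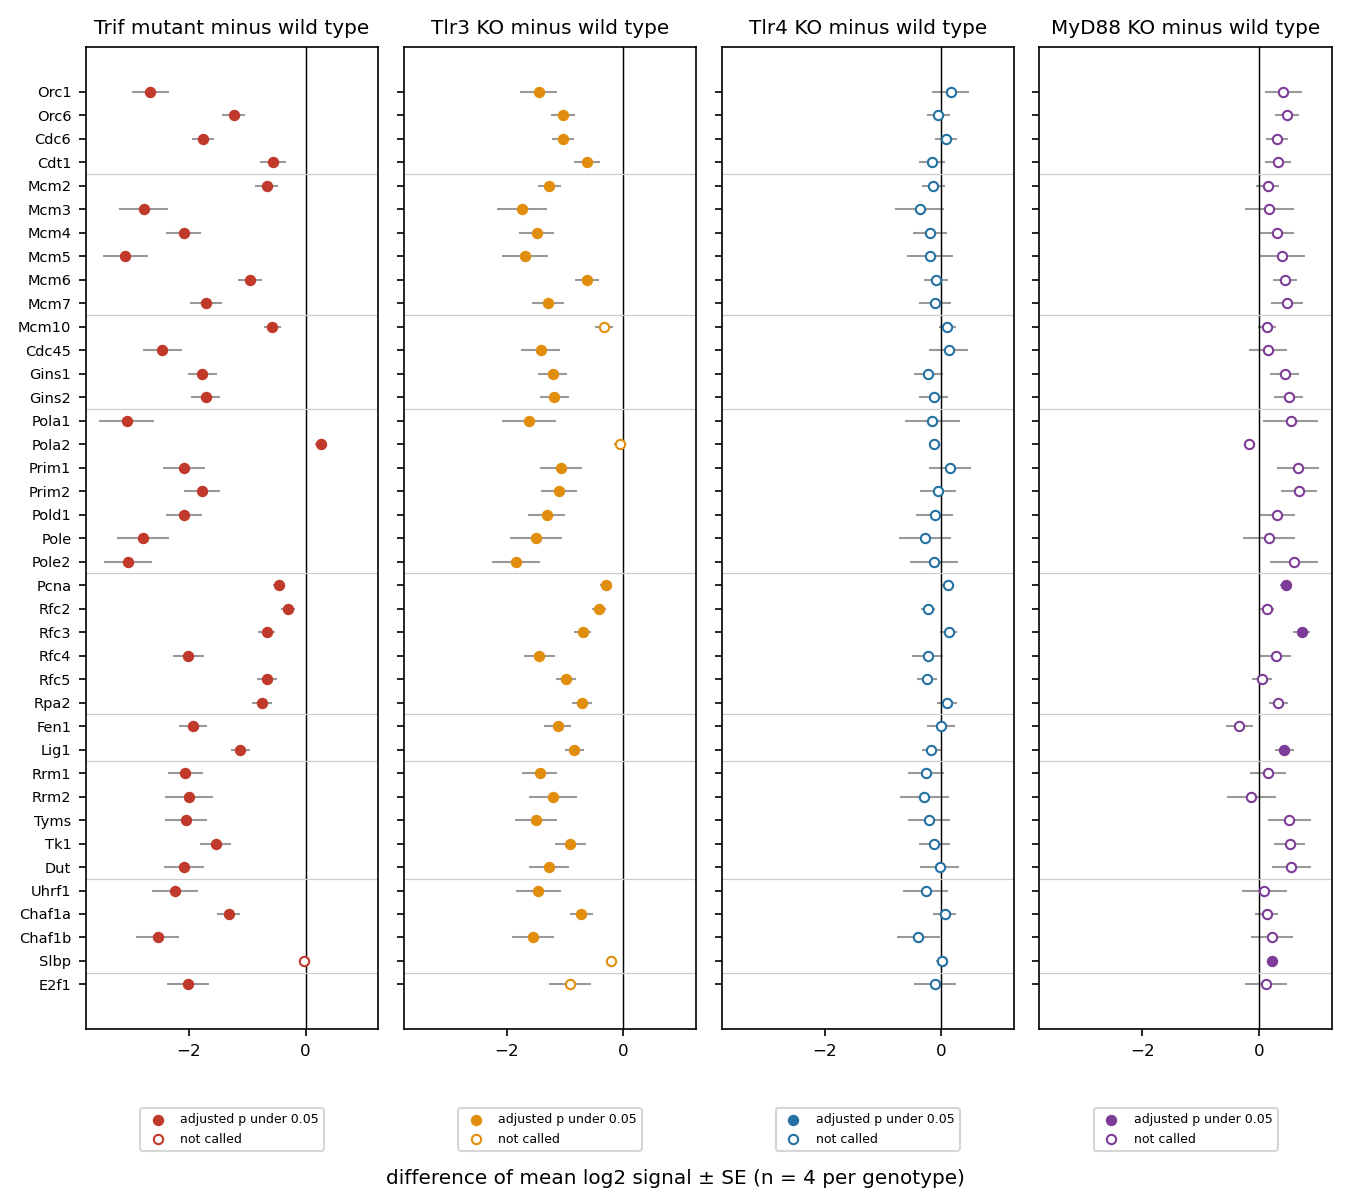
Difference of mean log2 signal from wild type (± SE, n = 4 arrays per genotype) for each of the 39 members in the 4 mutant genotypes, grouped by role, with filled points where the adjusted p is under 0.05. Trif mutant points reach -3.09 (Mcm5), Tlr3 knockout points reach -1.84 (Pole2), and Tlr4 knockout points lie between -0.39 and 0.16.

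E2F factors bind sites close to the start of many replication genes, so the promoter sequences of members that moved together are shown here. RefSeq promoter entries (GRCm38.p6) matched 33 of the 39 members, with 38 promoters; none is given for Rfc2, Gins1, Gins2, Mcm4, Prim2 and Pole. The 8-base E2F-type motifs TTTCCCGC and TTTGGCGC, searched on both strands with a gene counted once if it held either or both, occurred in the 300 bases from 250 before to 50 after the start in 10 of 33 members (30.3%), against 486 of 27025 genes with a promoter (1.8%). In the 250 bases before the start they occurred in 5 of 33 members (15.2%), against 1.51% of all genes. The CCAAT motif, searched on both strands in the 300 bases, occurred in 19 of 33 members (57.6%) and in 41.1% of all genes. The first 5 sequences below are those of the members with an E2F-type match before the start, with the matches in capitals, and that of Pola2, the member that rose in Trif mutants, has no match there. Mcm7 has another promoter entry, at chr5:138171267-138171516 and not printed, without a match in its 300 bases.
Mcm5 promoter, chr8:75109259-75109508, plus strand: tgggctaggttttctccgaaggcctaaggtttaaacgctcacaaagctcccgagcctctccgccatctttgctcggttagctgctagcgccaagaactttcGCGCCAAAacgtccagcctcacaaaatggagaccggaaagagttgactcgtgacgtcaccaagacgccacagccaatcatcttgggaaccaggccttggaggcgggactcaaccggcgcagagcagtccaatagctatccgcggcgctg
Mcm6 promoter, chr1:128359706-128359955, minus strand: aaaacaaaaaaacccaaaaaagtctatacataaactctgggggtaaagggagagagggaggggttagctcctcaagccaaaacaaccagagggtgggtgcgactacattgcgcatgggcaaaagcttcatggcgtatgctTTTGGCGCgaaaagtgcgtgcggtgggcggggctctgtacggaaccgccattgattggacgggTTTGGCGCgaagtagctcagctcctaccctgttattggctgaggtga
Mcm7 promoter, chr5:138171884-138172133, minus strand: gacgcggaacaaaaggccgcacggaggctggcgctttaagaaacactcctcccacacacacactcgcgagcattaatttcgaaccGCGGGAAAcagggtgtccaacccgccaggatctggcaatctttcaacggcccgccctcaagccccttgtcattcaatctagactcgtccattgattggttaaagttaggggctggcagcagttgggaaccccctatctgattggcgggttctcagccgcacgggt
Cdc6 promoter, chr11:98907901-98908150, plus strand: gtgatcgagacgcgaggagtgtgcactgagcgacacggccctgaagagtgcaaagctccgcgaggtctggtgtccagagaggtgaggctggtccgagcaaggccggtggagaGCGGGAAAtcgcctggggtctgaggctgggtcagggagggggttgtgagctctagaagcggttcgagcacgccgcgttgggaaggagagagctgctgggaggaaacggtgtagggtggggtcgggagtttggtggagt
Pola1 promoter, chrX:93632156-93632405, minus strand: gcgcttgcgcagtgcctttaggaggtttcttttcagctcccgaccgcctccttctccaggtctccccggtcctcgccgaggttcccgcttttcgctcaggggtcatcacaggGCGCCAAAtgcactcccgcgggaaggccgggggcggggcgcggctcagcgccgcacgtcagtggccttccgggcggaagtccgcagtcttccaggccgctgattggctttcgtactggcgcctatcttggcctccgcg
Pola2 promoter, chr19:5964207-5964456, minus strand: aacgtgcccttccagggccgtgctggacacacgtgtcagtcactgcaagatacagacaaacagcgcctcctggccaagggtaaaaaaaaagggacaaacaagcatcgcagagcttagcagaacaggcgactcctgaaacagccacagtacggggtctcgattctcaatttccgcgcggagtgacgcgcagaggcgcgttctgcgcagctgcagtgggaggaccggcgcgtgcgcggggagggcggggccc
The first base of the match lay 149 bases before the start in Mcm5, 110 and 47 before it in Mcm6, 165 before it in Mcm7 and 138 before it in both Cdc6 and Pola1. In 5 other members the match lay just after the start, and 30 bases around it are shown, again with matches in capitals.
Mcm3 site, chr1:20820266-20820295, minus strand: tgGCGGGAAAacttgggaagtTTTGGCGCc
Pole2 site, chr12:69228162-69228191, minus strand: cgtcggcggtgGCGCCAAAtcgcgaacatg
Pold1 site, chr7:44548766-44548795, minus strand: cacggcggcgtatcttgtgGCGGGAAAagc
Rfc3 site, chr5:151651190-151651219, minus strand: ctttcgcgctcGCGGGAAAactctactgtc
Cdt1 site, chr8:122568035-122568064, plus strand: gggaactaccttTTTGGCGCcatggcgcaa
In Trif mutants the 10 members with a match had a median difference of -1.93 and all 10 fell, and the 23 without one had the same median, -1.93, with 21 that fell. In Tlr3 knockouts the medians were -1.30 with a match, where 10 of 10 fell, and -1.07 without, where 19 of 23 fell. A match describes these letters alone and says nothing of binding in these cells.

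Origin recognition and licensing genes (Orc1, Orc6, Cdc6 and Cdt1) fell in both genotypes, 4 of 4 in each, with medians of -1.50 in Trif mutants and -1.03 in Tlr3 knockouts. Values of the 4 arrays of a genotype are given in the order of their replicate numbers. Cdc6, the loader whose promoter is shown above, gave log2 signals of -1.0, -1.66, -1.65 and -1.13 in wild type mice, -3.26, -3.14, -3.28 and -2.83 in Trif mutants and -2.21, -2.79, -2.48 and -2.09 in Tlr3 knockouts. For Cdc6, Tlr4 knockouts gave -1.15, -1.12, -1.21 and -1.63 and MyD88 knockouts -1.23, -0.75, -1.22 and -1.0. The Trif mutant, Tlr3 knockout and wild type values of Cdc6 formed 3 separate ranges, with Trif mutants lowest. Cdc6 differed from wild type by -1.76 ± 0.19 (adjusted p = 4.39e-06) in Trif mutants and by -1.03 ± 0.19 (adjusted p = 0.000546) in Tlr3 knockouts. Cdt1, its partner in loading, gave 3.86, 3.68, 3.44 and 3.65 in wild type mice, 3.01, 2.84, 2.63 and 3.90 in Trif mutants and 3.03, 3.07, 2.75 and 3.27 in Tlr3 knockouts. In Tlr4 knockouts Cdt1 was 3.60, 3.71, 3.33 and 3.37, and in MyD88 knockouts 3.99, 4.42, 3.68 and 3.85. The fourth Trif mutant array held the highest Cdt1 value of the wild type and Trif mutant arrays together, so these groups overlapped, while Tlr3 knockouts lay below wild type. Differences of Cdt1 were -0.56 ± 0.22 (adjusted p = 0.0467) in Trif mutants and -0.63 ± 0.22 (adjusted p = 0.0324) in Tlr3 knockouts, and each call was lost on leaving out any of 6 arrays. The Trif mutant change also turned to 0.24 with Xist-high arrays alone, a value that rests on 1 Trif mutant array. Orc1, the largest subunit of the origin recognition complex, was -3.08 to -2.44 in wild type mice, -6.38 to -4.89 in Trif mutants and -5.11 to -3.68 in Tlr3 knockouts, and 2 of the 4 Trif mutant arrays, the second and the third, were not well above background, so the difference of -2.67 ± 0.32 (adjusted p = 9.98e-06) in Trif mutants is imprecise. In Tlr3 knockouts Orc1 differed by -1.45 ± 0.32 (adjusted p = 0.00196). With another background correction (normexp) its Trif mutant difference was -0.37 and no longer called. Orc6, another subunit, differed by -1.23 and -1.04 in the same order.

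All 6 subunits of the MCM2-7 helicase fell in both genotypes, with medians of -1.90 in Trif mutants and -1.39 in Tlr3 knockouts, but by unequal amounts. Mcm5, whose promoter is printed above, fell furthest of all 39 members in Trif mutants. Its log2 signal was 2.67, 2.32, 2.25 and 2.38 in wild type mice, -0.37, -1.67, -1.40 and 0.72 in Trif mutants and 1.05, 0.23, 0.34 and 1.27 in Tlr3 knockouts. For Mcm5, Tlr4 knockouts gave 2.34, 2.52, 2.24 and 1.73 and MyD88 knockouts 2.66, 3.34, 2.57 and 2.61. Trif mutant arrays 2 and 3 were lowest, array 4 was highest of its group, and neither Trif mutants nor Tlr3 knockouts overlapped wild type. Mcm5 was 8.50-fold lower in Trif mutants, a difference of -3.09 ± 0.39 (adjusted p = 1.62e-05), and differed by -1.68 ± 0.39 (adjusted p = 0.00311) in Tlr3 knockouts. Mcm3, which sits beside MCM5 in the ring, gave 2.98, 2.64, 2.48 and 2.97 in wild type mice, 0.42, -1.11, -0.84 and 1.51 in Trif mutants and 1.30, 0.58, 0.67 and 1.57 in Tlr3 knockouts. For Mcm3, Tlr4 knockouts gave 2.52, 2.61, 2.44 and 2.03 and MyD88 knockouts 2.81, 3.52, 2.53 and 2.92. Trif mutant arrays 2 and 3 were again lowest and array 4 highest, and the differences were -2.77 ± 0.42 (adjusted p = 6.52e-05) in Trif mutants, -1.74 ± 0.42 (adjusted p = 0.00396) in Tlr3 knockouts and -0.37 ± 0.42 (adjusted p = 0.675) in Tlr4 knockouts. Mcm4 and Mcm7, with Mcm6, form the catalytic core of the helicase. Mcm4 gave 3.62, 3.24, 3.09 and 3.41 in wild type mice, 1.30, 0.66, 0.73 and 2.32 in Trif mutants and 2.04, 1.46, 1.61 and 2.31 in Tlr3 knockouts. For Mcm4, Tlr4 knockouts gave 3.29, 3.40, 3.16 and 2.74 and MyD88 knockouts 3.53, 4.12, 3.34 and 3.58. No Trif mutant or Tlr3 knockout value of Mcm4 reached wild type, and the differences were -2.09 ± 0.30 (adjusted p = 4.08e-05) and -1.49 ± 0.30 (adjusted p = 0.00115). 

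Mcm7 gave 3.66, 3.41, 3.41 and 3.28 in wild type mice, 2.05, 1.27, 1.11 and 2.50 in Trif mutants and 2.42, 1.78, 1.76 and 2.64 in Tlr3 knockouts. For Mcm7, Tlr4 knockouts gave 3.43, 3.65, 3.37 and 2.89 and MyD88 knockouts 3.85, 4.29, 3.63 and 3.93. It differed by -1.71 ± 0.28 (adjusted p = 0.000109) in Trif mutants and -1.29 ± 0.28 (adjusted p = 0.00172) in Tlr3 knockouts, again without overlap with wild type. Mcm6, which carries 2 E2F-type matches before its start, gave 4.86, 4.79, 4.53 and 4.68 in wild type mice, 3.70, 3.43, 3.46 and 4.49 in Trif mutants and 4.07, 4.02, 3.97 and 4.30 in Tlr3 knockouts. For Mcm6, Tlr4 knockouts gave 4.78, 4.91, 4.45 and 4.37 and MyD88 knockouts 5.14, 5.58, 4.82 and 5.11. The fourth Trif mutant array lay just below the lowest wild type array. Mcm6 differed by -0.95 ± 0.21 (adjusted p = 0.00133) in Trif mutants and -0.63 ± 0.21 (adjusted p = 0.0237) in Tlr3 knockouts; the second call was lost without wild type array 1 or 2 or Tlr3 knockout array 2 or 3. Mcm2, a subunit with a histone-binding tail, did not follow the order of the other subunits. It gave 1.35, 1.12, 0.94 and 1.22 in wild type mice, 0.50, 0.09, 0.78 and 0.59 in Trif mutants and 0.01, -0.56, -0.31 and 0.39 in Tlr3 knockouts. For Mcm2, Tlr4 knockouts gave 1.16, 1.18, 1.02 and 0.73 and MyD88 knockouts 1.04, 1.68, 1.17 and 1.32. Tlr3 knockouts were lower than Trif mutants for Mcm2, by a Trif mutant minus Tlr3 knockout difference of 0.61 ± 0.20 (adjusted p = 0.0362). That call was lost on leaving out any 1 of 6 arrays (adjusted p = 0.0543 to 0.114), and the differences from wild type were -0.67 ± 0.20 (adjusted p = 0.0105) and -1.27 ± 0.20 (adjusted p = 0.000136).

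Genes that activate the loaded helicase (Cdc45, Gins1, Gins2 and Mcm10) all fell in Trif mutants, with a median of -1.74, and 3 of 4 fell in Tlr3 knockouts, with a median of -1.20. Cdc45, which travels with the helicase, was -1.82 to -1.43 in wild type mice, -4.72 to -3.00 in Trif mutants and -3.84 to -2.59 in Tlr3 knockouts, without overlap with wild type. It differed by -2.45 ± 0.33 (adjusted p = 2.4e-05) in Trif mutants and -1.42 ± 0.33 (adjusted p = 0.00297) in Tlr3 knockouts, and neither call held under normexp, where the Trif mutant difference was -0.92. The GINS subunits Gins1 and Gins2 differed by -1.77 and -1.71 in Trif mutants (adjusted p = 3.33e-05 and 4.38e-05) and by -1.21 and -1.19 in Tlr3 knockouts (adjusted p = 0.0013 and 0.00148). Mcm10, a scaffold of the early fork, differed less, by -0.57 ± 0.15 (adjusted p = 0.00479) in Trif mutants and -0.33 ± 0.15 (adjusted p = 0.0842) in Tlr3 knockouts.

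Of the 7 polymerase and primase genes 6 fell and 1 rose in Trif mutants, with a median of -2.09, and 6 fell in Tlr3 knockouts, with a median of -1.32. Pola1, the catalytic subunit of DNA polymerase alpha, is X-linked and its promoter is printed above. It gave 0.88, 0.58, 0.38 and 0.72 in wild type mice, -1.87, -3.65, -3.46 and -0.73 in Trif mutants and -0.48, -1.51, -1.44 and -0.49 in Tlr3 knockouts. For Pola1, Tlr4 knockouts gave 0.58, 0.75, 0.52 and 0.10 and MyD88 knockouts 0.92, 1.65, 0.92 and 1.23. Trif mutant arrays 2 and 3 were lowest and array 4 highest of that group, and every MyD88 knockout value was above every wild type value. Pola1 was 8.39-fold lower in Trif mutants, a difference of -3.07 ± 0.47 (adjusted p = 6.99e-05), and differed by -1.62 ± 0.47 (adjusted p = 0.0119) in Tlr3 knockouts. Prim1, the catalytic primase subunit, gave 1.99, 1.78, 1.60 and 1.79 in wild type mice, 0.30, -1.23, -1.06 and 0.83 in Trif mutants and 1.08, 0.30, 0.36 and 1.17 in Tlr3 knockouts. For Prim1, Tlr4 knockouts gave 2.11, 2.20, 1.83 and 1.63 and MyD88 knockouts 2.45, 2.80, 2.12 and 2.45. Prim1 differed by -2.08 ± 0.36 (adjusted p = 0.000177) in Trif mutants, -1.07 ± 0.36 (adjusted p = 0.0252) in Tlr3 knockouts and 0.67 ± 0.36 (adjusted p = 0.128) in MyD88 knockouts. The Tlr3 knockout call was lost without wild type array 1 or Tlr3 knockout array 2 or 3. Prim2, the large primase subunit, gave 0.61, 0.34, 0.10 and 0.36 in wild type mice, -1.10, -1.80, -2.30 and -0.49 in Trif mutants and -0.52, -1.07, -1.09 and -0.34 in Tlr3 knockouts. For Prim2, Tlr4 knockouts gave 0.41, 0.51, 0.34 and -0.09 and MyD88 knockouts 0.94, 1.56, 0.67 and 0.99. Prim2 differed by -1.78 ± 0.30 (adjusted p = 0.000184) in Trif mutants, -1.11 ± 0.30 (adjusted p = 0.00884) in Tlr3 knockouts and 0.69 ± 0.30 (adjusted p = 0.0696) in MyD88 knockouts, where the values stood above wild type without passing the test.

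Pole, the catalytic subunit of DNA polymerase epsilon, which copies the leading strand, gave 1.48, 1.16, 1.00 and 1.12 in wild type mice, -1.15, -2.73, -2.59 and 0.06 in Trif mutants and 0.04, -0.70, -0.76 and 0.19 in Tlr3 knockouts. For Pole, Tlr4 knockouts gave 1.07, 1.21, 0.93 and 0.44 and MyD88 knockouts 1.44, 1.76, 1.08 and 1.12. It differed by -2.79 ± 0.45 (adjusted p = 0.0001) in Trif mutants, -1.50 ± 0.45 (adjusted p = 0.0137) in Tlr3 knockouts and -0.28 ± 0.45 (adjusted p = 0.784) in Tlr4 knockouts. Its partner subunit Pole2 had the largest fall of any member in Tlr3 knockouts. Pole2 gave -0.73, -0.96, -1.38 and -0.84 in wild type mice, -4.19, -4.66, -4.86 and -2.39 in Trif mutants and -2.32, -3.37, -3.34 and -2.25 in Tlr3 knockouts. For Pole2, Tlr4 knockouts gave -1.11, -0.81, -1.06 and -1.44 and MyD88 knockouts -0.60, 0.06, -0.63 and -0.37. It was 8.24-fold lower in Trif mutants, a difference of -3.04 ± 0.41 (adjusted p = 2.53e-05), and 3.58-fold lower in Tlr3 knockouts, a difference of -1.84 ± 0.41 (adjusted p = 0.0023). Neither group overlapped wild type, and in MyD88 knockouts the difference was 0.59 ± 0.41 (adjusted p = 0.238). Pold1, the catalytic subunit of the lagging-strand DNA polymerase delta, differed by -2.09 and -1.32 (adjusted p = 5.55e-05 and 0.00331).

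Pola2, the regulatory subunit that pairs with Pola1, was the 1 member that went against the others. It gave -0.81, -0.86, -1.09 and -0.90 in wild type mice, -0.76, -0.65, -0.57 and -0.63 in Trif mutants and -1.11, -0.87, -1.07 and -0.85 in Tlr3 knockouts. For Pola2, Tlr4 knockouts gave -1.07, -0.83, -1.11 and -1.13 and MyD88 knockouts -1.15, -1.0, -1.05 and -1.12. All 4 Trif mutant values were above all 4 wild type values, though by little: the difference was 0.26 ± 0.09 (adjusted p = 0.0313), or 1.20-fold, and that of Tlr3 knockouts -0.06 ± 0.09 (adjusted p = 0.627). This rise was lost on leaving out any of 5 arrays (adjusted p = 0.0525 to 0.105), and it was not called under normexp or median scaling. Pola2 had 3 probes, at mm9 chr19:5946484-5946543 (the brightest, used here), chr19:5950346-5950405 and chr19:5957717-5957776. The second gave Trif mutant, Tlr3 knockout and Tlr4 knockout differences of 1.79, 1.23 and 1.06 but was not well above background on wild type arrays 1 and 4, and the third was at background throughout. With all kept probes averaged, Pola2 differed by 0.59 (adjusted p = 0.00408) in Tlr3 knockouts and 0.47 (adjusted p = 0.0353) in Tlr4 knockouts.

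The sliding clamp, its loader and the single-strand DNA binding subunit (Pcna, Rfc2 to Rfc5 and Rpa2) fell in both genotypes, 6 of 6 in each, and were the role with the smallest medians, -0.66 in Trif mutants and -0.70 in Tlr3 knockouts. Pcna, the clamp, gave 4.38, 4.23, 4.07 and 4.24 in wild type mice, 3.72, 3.70, 3.73 and 3.94 in Trif mutants and 3.94, 3.95, 3.83 and 3.97 in Tlr3 knockouts. For Pcna, Tlr4 knockouts gave 4.40, 4.52, 4.25 and 4.23 and MyD88 knockouts 4.59, 4.94, 4.53 and 4.69. Trif mutant and Tlr3 knockout values lay below all wild type values, and MyD88 knockout values above them. Pcna differed by -0.45 ± 0.10 (adjusted p = 0.00175) in Trif mutants, -0.31 ± 0.10 (adjusted p = 0.0264) in Tlr3 knockouts and 0.46 ± 0.10 (adjusted p = 0.0018) in MyD88 knockouts, and the Tlr3 knockout call was lost without wild type array 1 or 4 or Tlr3 knockout array 3. Rfc3, a subunit of the clamp loader, gave -0.29, -0.72, -0.66 and -0.92 in wild type mice, -1.23, -1.33, -1.35 and -1.33 in Trif mutants and -1.19, -1.45, -1.52 and -1.22 in Tlr3 knockouts. For Rfc3, Tlr4 knockouts gave -0.47, -0.18, -0.67 and -0.76 and MyD88 knockouts -0.01, 0.35, -0.04 and 0.03. Rfc3 had the largest MyD88 knockout difference of any member, 0.73 ± 0.14 (adjusted p = 0.000748), and differed by -0.66 ± 0.14 (adjusted p = 0.00129) in Trif mutants and -0.70 ± 0.14 (adjusted p = 0.00138) in Tlr3 knockouts. Its partner Rfc4 had the largest fall of the role, -2.01 ± 0.26 (adjusted p = 2.02e-05) and -1.44 ± 0.26 (adjusted p = 0.000574) in the same order. Rfc5 differed by -0.66 in Trif mutants and by -0.98 in Tlr3 knockouts, and Rpa2 by -0.74 and -0.70 (a second Rpa2 probe gave -0.21 and -0.42). Rfc2 differed by -0.30 ± 0.12 (adjusted p = 0.0481) in Trif mutants, with overlap, and by -0.42 ± 0.12 (adjusted p = 0.00947) in Tlr3 knockouts. The Trif mutant call of Rfc2 was lost on leaving out any of 7 arrays. Its difference with Xist-high arrays alone was 0.018, a value that rests on 1 Trif mutant array.

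The genes that finish the lagging strand, Fen1 (the flap nuclease) and Lig1 (the ligase that seals nicks), fell in both genotypes. Lig1 gave 3.42, 3.21, 3.13 and 3.08 in wild type mice, 2.15, 1.98, 1.88 and 2.36 in Trif mutants and 2.41, 2.20, 2.17 and 2.69 in Tlr3 knockouts. For Lig1, Tlr4 knockouts gave 3.12, 3.29, 3.12 and 2.63 and MyD88 knockouts 3.65, 3.99, 3.44 and 3.49. It differed by -1.12 ± 0.16 (adjusted p = 4.79e-05) in Trif mutants and -0.84 ± 0.16 (adjusted p = 0.000864) in Tlr3 knockouts, and it rose in MyD88 knockouts, by 0.43 ± 0.16 (adjusted p = 0.0367), a call that was lost on leaving out any of 5 arrays. Fen1 differed by -1.93 ± 0.24 (adjusted p = 1.3e-05) in Trif mutants and -1.13 ± 0.24 (adjusted p = 0.00158) in Tlr3 knockouts. In MyD88 knockouts, where its 4 values lay below all 4 wild type values, Fen1 did not pass the test, with -0.34 ± 0.24 (adjusted p = 0.248).

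All 5 members that make deoxynucleotides (Rrm1, Rrm2, Tyms, Tk1 and Dut) fell in both genotypes, with medians of -2.05 in Trif mutants and -1.27 in Tlr3 knockouts. Rrm1, the large subunit of ribonucleotide reductase, gave 2.92, 2.57, 2.55 and 2.67 in wild type mice, 1.00, -0.15, 0.16 and 1.47 in Trif mutants and 1.58, 0.87, 0.91 and 1.62 in Tlr3 knockouts. For Rrm1, Tlr4 knockouts gave 2.61, 2.65, 2.56 and 1.87 and MyD88 knockouts 2.69, 3.36, 2.46 and 2.79. Rrm1 differed by -2.06 ± 0.31 (adjusted p = 5.59e-05) in Trif mutants and -1.44 ± 0.31 (adjusted p = 0.0017) in Tlr3 knockouts, without overlap with wild type. Rrm2, the small subunit, which is abundant mainly in dividing cells, gave 0.65, 0.08, 0.11 and 0.52 in wild type mice, -1.49, -2.73, -2.38 and -0.05 in Trif mutants and -0.72, -1.28, -1.15 and -0.33 in Tlr3 knockouts. For Rrm2, Tlr4 knockouts gave 0.27, 0.20, 0.19 and -0.47 and MyD88 knockouts 0.11, 0.54, -0.22 and 0.38. The fourth Tlr4 knockout array was low and lay among the Tlr3 knockout values. Rrm2 differed by -2.0 ± 0.41 (adjusted p = 0.000873) in Trif mutants, -1.20 ± 0.41 (adjusted p = 0.0294) in Tlr3 knockouts and -0.29 ± 0.41 (adjusted p = 0.753) in Tlr4 knockouts; the Tlr3 knockout call was lost without wild type array 1 or 4 or Tlr3 knockout array 2 or 3. Tyms, which makes thymidylate, gave 3.51, 3.23, 3.01 and 3.34 in wild type mice, 1.37, 0.38, 0.63 and 2.51 in Trif mutants and 2.12, 1.36, 1.37 and 2.26 in Tlr3 knockouts. For Tyms, Tlr4 knockouts gave 3.21, 3.29, 3.13 and 2.62 and MyD88 knockouts 3.67, 4.34, 3.32 and 3.84. Tyms differed by -2.05 ± 0.36 (adjusted p = 0.000232) in Trif mutants and -1.49 ± 0.36 (adjusted p = 0.00396) in Tlr3 knockouts. Of the other Tyms probes, 1 gave -2.11 and -1.54 in the same order, and another went the other way, with 0.10 and 0.71. Tk1, the thymidine salvage kinase, gave 2.38, 2.18, 2.17 and 2.01 in wild type mice, 0.94, 0.11, 0.22 and 1.31 in Trif mutants and 1.64, 0.88, 0.88 and 1.70 in Tlr3 knockouts. For Tk1, Tlr4 knockouts gave 2.26, 2.31, 2.00 and 1.67 and MyD88 knockouts 2.57, 3.18, 2.32 and 2.75. The differences of Tk1 were -1.54 ± 0.27 (adjusted p = 0.000199) in Trif mutants and -0.91 ± 0.27 (adjusted p = 0.0124) in Tlr3 knockouts. Dut, which removes dUTP so that uracil is kept out of DNA, differed by -2.08 and -1.27 (adjusted p = 0.000113 and 0.00696).

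Of the 4 genes for chromatin behind the fork and for histone supply, 3 fell in each of the same genotypes, with medians of -1.78 and -1.09. Chaf1b, a subunit of the histone chaperone CAF-1, gave 2.20, 1.78, 1.78 and 1.76 in wild type mice, -0.16, -1.57, -1.27 and 0.38 in Trif mutants and 0.68, -0.13, -0.11 and 0.87 in Tlr3 knockouts. For Chaf1b, Tlr4 knockouts gave 1.72, 1.74, 1.61 and 0.90 and MyD88 knockouts 2.22, 2.59, 1.68 and 1.92. Chaf1b differed by -2.53 ± 0.36 (adjusted p = 4.13e-05) in Trif mutants and -1.55 ± 0.36 (adjusted p = 0.00317) in Tlr3 knockouts. Its Tlr4 knockout difference, -0.39 ± 0.36 (adjusted p = 0.593), was the largest of any member in that genotype and did not pass the test, though all 4 values lay below wild type. The other CAF-1 subunit, Chaf1a, differed by -1.32 and -0.72 (adjusted p = 5.22e-05 and 0.00772). Uhrf1, which helps to copy DNA methylation, differed by -2.24 and -1.46 (adjusted p = 0.000205 and 0.00741). Slbp, which binds the stem-loop of histone mRNAs, was apart from these. It gave 2.99, 2.87, 2.76 and 2.94 in wild type mice, 2.85, 2.72, 2.90 and 3.01 in Trif mutants and 2.74, 2.65, 2.65 and 2.67 in Tlr3 knockouts. For Slbp, Tlr4 knockouts gave 3.01, 2.98, 2.81 and 2.79 and MyD88 knockouts 3.09, 3.27, 2.93 and 3.19. Trif mutant and wild type values of Slbp were mixed, with a difference of -0.02 ± 0.09 (adjusted p = 0.888) and a 95% interval of -0.21 to 0.18. In Tlr3 knockouts all 4 values lay below wild type, with a difference of -0.21 ± 0.09 (adjusted p = 0.0833) that did not pass the test. In MyD88 knockouts it rose by 0.23 ± 0.09 (adjusted p = 0.0496). That call was lost on leaving out any 1 of 6 arrays (adjusted p = 0.0638 to 0.142), and the difference turned to -0.18 (adjusted p = 0.288) under median scaling.

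E2f1, a transcription factor that drives many of these genes and is itself a target of the family, gave -1.61, -1.88, -1.89 and -2.01 in wild type mice, -3.36, -4.78, -4.15 and -3.15 in Trif mutants and -2.50, -3.30, -3.43 and -1.85 in Tlr3 knockouts. For E2f1, Tlr4 knockouts gave -1.74, -1.61, -1.96 and -2.53 and MyD88 knockouts -2.0, -1.37, -2.09 and -1.43. Trif mutant values lay below all wild type values, while the fourth Tlr3 knockout array lay within the wild type range. E2f1 differed by -2.01 ± 0.36 (adjusted p = 0.000258) in Trif mutants and by -0.92 ± 0.36 (adjusted p = 0.0514) in Tlr3 knockouts. Without the fourth Tlr3 knockout array, E2f1 and Mcm10 passed the test in Tlr3 knockouts (adjusted p = 0.0112 and 0.0134), and under normexp E2f1 did not pass it in Trif mutants, with a difference of -0.75.

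The size of the fall differed between animals of a genotype. The median over the 39 members, relative to each gene's wild type mean, was -1.60, -2.19, -2.30 and -0.96 on Trif mutant arrays 1 to 4 and -0.87, -1.52, -1.47 and -0.79 on Tlr3 knockout arrays 1 to 4. It was 0.00, 0.13, -0.12 and -0.53 on Tlr4 knockout arrays, 0.26, 0.71, 0.06 and 0.27 on MyD88 knockout arrays, and -0.15 to 0.24 on wild type arrays. No Trif mutant or Tlr3 knockout array reached the lowest wild type median, and the fourth Tlr4 knockout array lay below it. Within slides 1 to 4 the Trif mutant minus wild type medians were -1.77, -2.14, -2.26 and -0.96, and the Tlr3 knockout minus wild type medians were -1.21, -1.45, -1.29 and -0.77. Those of Tlr4 knockouts were -0.21, 0.15, 0.06 and -0.46, so their sign differed between slides. With the slide as a block, 36 members fell and 1 rose in Trif mutants, and 35 and 0 in Tlr3 knockouts. Of all features 16.4% and 14.5% fell with this block.

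**Figure D3:**
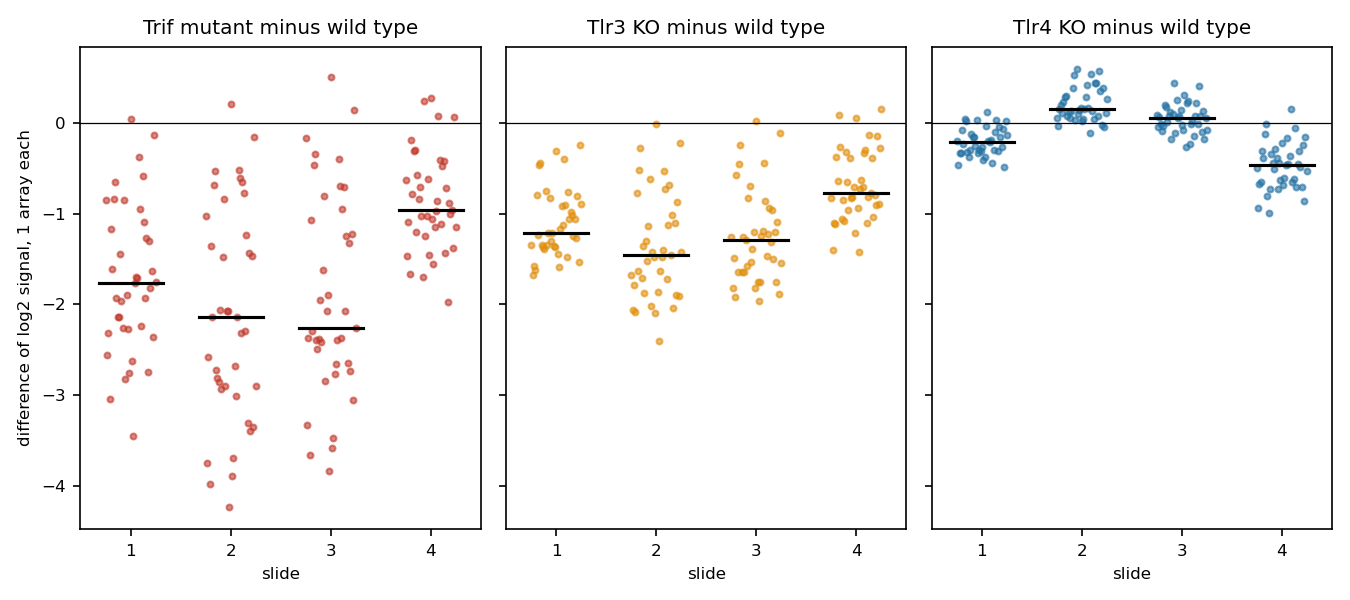
Difference between 2 arrays of the same slide (log2 signal) for the 39 members, shown for slides 1 to 4 (x axis) in Trif mutants, Tlr3 knockouts and Tlr4 knockouts against wild type, each point a member and each bar the median. Trif mutant and Tlr3 knockout medians relative to wild type are below 0 on every slide and smallest on slide 4, at -0.96 and -0.77.

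Signals of Xist, expressed from the inactive X of females, and of the Y-linked Eif2s3y differed within and between the genotypes. The fourth Trif mutant array, the least lowered, was the only one of its group with Xist above Eif2s3y, and all 4 wild type arrays had it above. In Tlr3 knockouts the array with Eif2s3y above Xist was array 3, whose median of -1.47 was close to the -1.52 of array 2, the lowest of the group, where Xist was above. All 4 MyD88 knockout arrays had Eif2s3y above, with medians from 0.06 to 0.71. The Xist-high arrays were 4 wild type, 1 Trif mutant, 3 Tlr3 knockout and 4 Tlr4 knockout arrays, a choice made after seeing the data. With these alone 33 members fell in Tlr3 knockouts, with a median of -1.11, where 12.6% of features fell. In Trif mutants the median with these arrays was -0.96, a value that rests on 1 array. With Xist signal as a covariate 29 members fell in Trif mutants, with a median of -1.30, and 35 in Tlr3 knockouts, with a median of -1.03. Of all features 10.5% and 12.8% fell with that covariate. The part of sex in the difference between Trif mutants and wild type mice was not otherwise tested.

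Set directly against each other, Trif mutants were lower than Tlr3 knockouts for 10 members and higher for 2, with a median of -0.60, where 10.0% of all features were lower and 10.2% higher. Of features called there, 50.5% were higher in Trif mutants, and 67.6% under median scaling. The 10 were Mcm5 (-1.40), Pola1 (-1.45), Pole (-1.29), Orc1 (-1.21), Pole2 (-1.20), E2f1 (-1.09), Cdc45 (-1.04), Fen1 (-0.80), Cdc6 (-0.73) and Chaf1a (-0.60), with adjusted p of 0.0109 (Cdc6) to 0.0489 (Pole). Only Cdc6 and Chaf1a had all 4 Trif mutant values below all 4 Tlr3 knockout values, against 11.1% of features, and Pola2 was the 1 member wholly above, with 0.32 ± 0.09 (adjusted p = 0.0222). The other member that was higher was Mcm2. Orc1 was not well above background on 2 of the 4 Trif mutant arrays, and its difference was 0.26 (adjusted p = 0.657) under normexp. Of the other lower members, the call was lost on leaving out any 1 of 4 arrays for Mcm5, Pola1, E2f1 and Fen1, of 5 for Cdc45, Chaf1a and Pole2 and of 7 for Pole, and that of Pola2 on leaving out any 1 of 3. This count depended on single arrays: it was 26 without Trif mutant array 4, and 2 without Trif mutant array 2 or 3 or without Tlr3 knockout array 1 or 4. With Xist as a covariate 0 members were lower in this comparison, where 8.41% of features were. Xist-high arrays alone leave 1 Trif mutant array here. Within slides the medians were -0.69, -0.73, -0.74 and -0.14.

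Trif mutants were lower than Tlr4 knockouts for 34 members and higher for 1 (Pola2), with a median of -1.72, where 17.5% of features were lower and 23.7% higher. Within slides the medians were -1.60, -2.38, -2.26 and -0.40, and Xist-high arrays alone leave 1 Trif mutant array in this comparison. Tlr3 knockouts were lower than Tlr4 knockouts for 32 members and higher for 0 (37 and 0 at an unadjusted p under 0.05), with a median of -1.11, where 13.4% and 17.5% of features were. Of features called there, 56.6% were higher in Tlr3 knockouts, 41.5% under quantile normalization and 41.6% under median scaling. The medians within slides were -1.01, -1.69, -1.44 and -0.25. With Xist-high arrays alone 31 members were lower, and normexp gave 19, where 10.1% and 3.8% of features were lower. Between 22 and 34 members were lower when 1 array was left out, where 7.68% to 15% of features were. These comparisons share arrays with those against wild type, so they are not independent of them.

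In MyD88 knockouts 3 of the 39 member differences from wild type were below 0. The 4 members that rose there were Rfc3 (0.73), Pcna (0.46), Lig1 (0.43) and Slbp (0.23). The largest differences that did not pass the test were those of Prim2 (0.69), Prim1 (0.67) and Pole2 (0.59). The count of members that rose was 21 with Xist as a covariate, where 26.4% of all features rose, and 0 under median scaling, where 2 members fell and 28.9% of features fell and 15% rose. Sex, scan and genotype cannot be told apart in this comparison.

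Other genes of DNA replication, listed apart from the members, moved in the same direction in Trif mutants and Tlr3 knockouts. Of 39 such genes 28 fell and 2 rose in Trif mutants (median -0.75), and 26 fell and 3 rose in Tlr3 knockouts (median -0.76). Over all features 15.8% fell and 28.6% rose in Trif mutants, and 13.8% fell and 24.5% rose in Tlr3 knockouts. Clspn, a mediator of the replication checkpoint, differed by -3.44 (adjusted p = 4.1e-06) in Trif mutants and -1.52 (adjusted p = 0.00353) in Tlr3 knockouts. Dscc1, of an alternative clamp loader, differed by -2.48 (adjusted p = 1.49e-05) and -1.71 (adjusted p = 0.00056), and Ticrr, which helps to fire origins, by -2.46 (adjusted p = 0.000175) and -1.27 (adjusted p = 0.024). The genes that rose were Pold4, a small subunit of polymerase delta (0.68 (adjusted p = 0.00562) and 0.75 (adjusted p = 0.00398)), Tonsl (0.47 (adjusted p = 0.001) and 0.37 (adjusted p = 0.0078)) and, in Tlr3 knockouts, Gins4 (0.40 (adjusted p = 0.0123)). In Tlr4 knockouts 3 of the 39 rose, Rpa3 (0.61), Gins4 (0.47) and Pole3 (0.40), and 0 fell, against 9.27% and 3.11% of all features. In MyD88 knockouts 8 rose and 2 fell, against 37.1% and 12.3% of all features, led by Rpa3 (0.86) and the RNase H2 subunit Rnaseh2a (0.85), while Top1 (-0.37) and Donson (-0.35) fell.

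Of 10 chromatin genes linked to replication, 9 fell in Trif mutants (median -1.22) and 9 in Tlr3 knockouts (median -0.91). Asf1b, a histone chaperone, differed by -2.57 (adjusted p = 0.000109) and -1.44 (adjusted p = 0.00691), Hells, a chromatin remodeller, by -1.95 (adjusted p = 7.63e-05) and -1.50 (adjusted p = 0.00112), and Dnmt1, the maintenance DNA methyltransferase, by -1.77 (adjusted p = 5.61e-05) and -1.18 (adjusted p = 0.00241). Of 33 further genes of nucleotide synthesis 24 fell and 6 rose in Trif mutants (median -1.53), and 26 fell and 2 rose in Tlr3 knockouts (median -1.08). Dctd, a deaminase that feeds thymidylate synthesis, differed by -3.68 (adjusted p = 0.000152) and -2.19 (adjusted p = 0.0102). Gart, of purine synthesis, differed by -2.85 (adjusted p = 3.12e-06) and -1.53 (adjusted p = 0.000729), and Ctps, which makes CTP, by -2.84 (adjusted p = 0.000106) and -1.77 (adjusted p = 0.00594). Among the genes that rose in both were Samhd1, which breaks down deoxynucleotides (0.78 (adjusted p = 0.00227) and 0.81 (adjusted p = 0.00244)), and Rrm2b, a reductase subunit used outside S phase (0.48 (adjusted p = 0.0147) and 0.42 (adjusted p = 0.0365)). Adss (0.43), Tk2 (0.40) and Cmpk1 (0.37) also rose in Trif mutants.

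Of 29 further genes of the E2F network and G1 to S control, 19 fell and 6 rose in Trif mutants (median -0.78), and 18 fell and 1 rose in Tlr3 knockouts (median -0.67). Ccnd1, which encodes cyclin D1, differed by -3.00 (adjusted p = 3.84e-06) in Trif mutants and -0.90 (adjusted p = 0.0307) in Tlr3 knockouts. E2f7, an E2F repressor, differed by -2.63 (adjusted p = 0.000148) and -1.67 (adjusted p = 0.00663), and Ccna2, cyclin A2, by -2.50 (adjusted p = 0.000145) and -1.51 (adjusted p = 0.0089). In Trif mutants the genes that rose were Rbl2 (0.89) and Rbl1 (0.25), relatives of the retinoblastoma protein, Tfdp2 (0.79), E2f5 (0.38) and the cell cycle inhibitors Cdkn1c (0.65) and Cdkn1b (0.52). In Tlr3 knockouts the inhibitor Cdkn1a rose, by 0.79 (adjusted p = 0.0163). In Tlr4 knockouts Cdkn1c and E2f3 fell, by 1.10 and 0.53, and 0 genes of this list rose, where 3.11% of all features fell and 9.27% rose. In MyD88 knockouts 5 rose, led by Ccnd2 (0.98) and Cdk2 (0.90), and 6 fell, led by Cdkn1c (-1.36), against 37.1% and 12.3% of all features.

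Markers of other states and cell types moved in the same genotypes. Of 14 mitosis genes 13 fell in Trif mutants (median -2.57) and 13 in Tlr3 knockouts (median -1.46), with Bub1 the exception in each, and 0 rose. Cdk1, the mitotic kinase, differed by -3.32 and -1.55, and Mki67, the gene of the proliferation marker Ki-67, by -1.98 and -1.11. The mean log2 signal of the mitosis list was 1.91 to 2.17 on wild type arrays, -1.44 to 0.78 on Trif mutant, 0.20 to 1.13 on Tlr3 knockout, 1.35 to 2.16 on Tlr4 knockout and 1.98 to 2.54 on MyD88 knockout arrays. Of 12 crypt and stem cell markers 10 fell in Trif mutants and 11 in Tlr3 knockouts, with medians of -1.36 and -1.04. Olfm4, a crypt base marker, differed by -3.28 and -1.82, and the stem cell receptor Lgr5 by -0.96 and -1.73. The crypt mean was -0.04 to 0.35 on wild type, -1.65 to -0.59 on Trif mutant, -1.26 to -0.48 on Tlr3 knockout, -0.23 to 0.52 on Tlr4 knockout and 0.72 to 1.17 on MyD88 knockout arrays, and 8 of the 12 rose in MyD88 knockouts, Olfm4 by 1.96. Of 13 enterocyte markers 12 rose in Trif mutants and 12 in Tlr3 knockouts, with medians of 0.52 and 0.56, and 0 fell. This list includes the general epithelial genes Vil1 and Epcam, so it does not mark mature absorptive cells alone. The mean of the 13 was 6.82 to 7.39 on wild type, 7.64 to 7.81 on Trif mutant and 7.64 to 7.93 on Tlr3 knockout arrays. It was 7.21 to 7.44 and 6.95 to 7.29 on Tlr4 and MyD88 knockout arrays. The part of a different share of crypt cells in the replication genes' values was not tested.

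**Figure D4:**
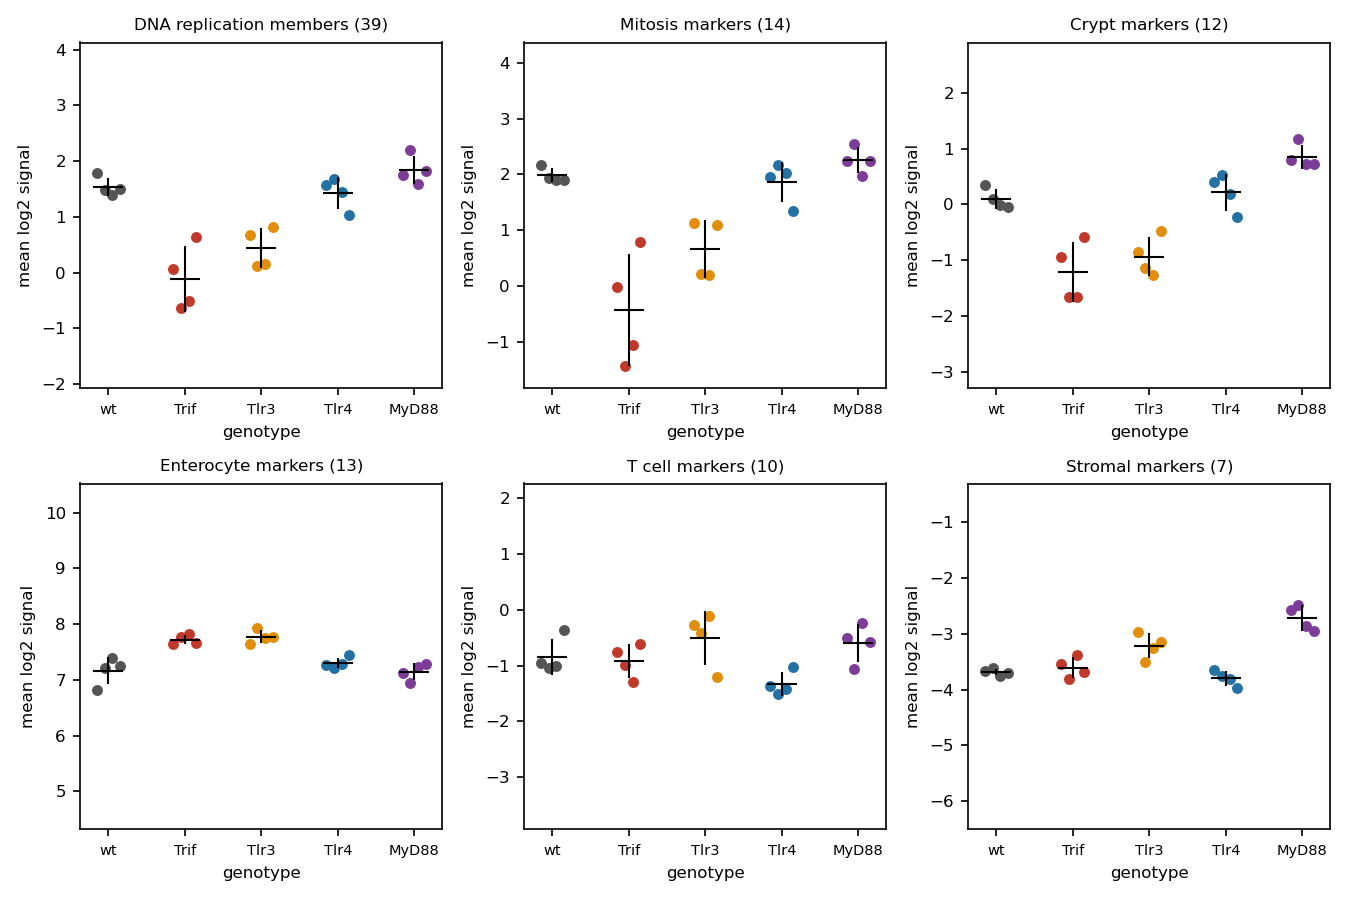
Mean log2 signal of the 39 members, and of the mitosis, crypt, enterocyte, T cell and stromal lists, on each of the 20 arrays by genotype (points), with the group mean ± SD (n = 4). Members, mitosis and crypt means are lower and enterocyte means higher in Trif mutants and Tlr3 knockouts than in wild type mice.

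Markers of other cells that the preparation could hold were measured too. Over all features 15.8% fell and 28.6% rose in Trif mutants, and 13.8% fell and 24.5% rose in Tlr3 knockouts. Of 10 T cell markers 1 fell in Trif mutants (Cd8b1, -1.92) and 1 rose in Tlr3 knockouts (Cd8a, 0.75), and their mean was -1.05 to -0.36 on wild type, -1.30 to -0.61 on Trif mutant and -1.20 to -0.11 on Tlr3 knockout arrays. Of 7 measured B cell markers 1 fell in Trif mutants and 1 fell and 1 rose in Tlr3 knockouts, with means of -4.59 to -3.92, -5.15 to -4.30 and -4.08 to -3.66 in the same order. Of 9 leukocyte and myeloid markers 2 fell in Trif mutants, Itgam (-1.41 (adjusted p = 3.86e-05)) and Lyz2 (-0.98 (adjusted p = 0.0322)). Another 3 rose in Trif mutants, Ptprc, the gene of CD45 (0.80 (adjusted p = 0.0199)), Fcer1g (0.59) and Csf1r (0.55). In Tlr3 knockouts 2 fell and 2 rose. The means of this list were -2.05 to -1.83 on wild type, -2.33 to -1.57 on Trif mutant and -2.16 to -1.78 on Tlr3 knockout arrays. Of 7 measured stromal markers 0 fell and 0 rose in Trif mutants and 2 rose in Tlr3 knockouts, with means of -3.75 to -3.61, -3.80 to -3.38 and -3.50 to -2.96. In MyD88 knockouts, where 37.1% of all features rose, 5 of 7 B cell and 6 of 7 stromal markers rose. Their means were -3.25 to -2.63 and -2.95 to -2.47. Over all genotypes, the stromal markers Des, Pecam1 and Col1a1 were well above background on only 4, 5 and 13 arrays. The B cell marker Ms4a1 was so on 10. The rises of these markers are therefore imprecise, and the list means include them. The other B cell and stromal markers that rose were well above background on every array. In MyD88 knockouts 3 of 9 myeloid markers rose (Lyz2 by 1.39, Cd68 by 1.02 and Csf1r by 0.61). So did 2 of 10 T cell markers (Cd3e by 1.31 and Cd8b1 by 1.06), and 0 of either list fell. The part of these cells in the members' values was not tested.

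The same lists were compared between the mutants. Over all features, 17.5% were lower and 23.7% higher in Trif mutants than in Tlr4 knockouts. In Tlr3 knockouts 13.4% were lower and 17.5% higher than in Tlr4 knockouts. Trif mutants were lower than Tlr3 knockouts for 10.0% of features and higher for 10.2%. Against Tlr4 knockouts, 13 of 14 mitosis genes were lower in Trif mutants and 13 in Tlr3 knockouts (medians -2.43 and -1.38), and 9 of 12 crypt markers in each (medians -1.55 and -1.03). Enterocyte markers were higher for 6 of 13 in Trif mutants and 9 of 13 in Tlr3 knockouts (medians 0.28 and 0.34). Of 10 T cell markers, 3 were higher and 1 lower in Trif mutants, and 6 were higher and 0 lower in Tlr3 knockouts (medians 0.51 and 0.84). Of 9 myeloid markers 4 were higher and 2 lower in Trif mutants, and 3 higher and 2 lower in Tlr3 knockouts. Of 7 B cell markers 3 were lower in Trif mutants and 0 passed the test in Tlr3 knockouts, and of 7 stromal markers 0 passed it in Trif mutants and 2 were higher in Tlr3 knockouts. Between Trif mutants and Tlr3 knockouts, 5 of 14 mitosis genes (median -1.02), 1 crypt, 1 T cell, 2 B cell, 2 myeloid and 1 stromal marker were lower in Trif mutants, 0 enterocyte markers passed the test and 0 markers of these lists were higher. The part of these markers' cells in the members' differences between mutants was not tested.

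Members varied together across the 20 arrays, which span the 5 genotypes, so their likeness includes the genotype differences above. Mcm4 was closest to the mean of the other 38 members (Pearson r = 0.996), followed by Rrm1 (0.994) and Gins1 (0.994). The least close were Pola2 (-0.58), Slbp (0.65), Mcm2 (0.78), Rfc2 (0.82) and Rfc5 (0.84). Outside the set, the 10 genes with the highest r with the members' mean were Nup85, Fbl, Hmgb1, Tyms-ps, BC055324, Pkp1, Exosc8, Syce2, Tipin and Tcf19, with r from 0.998 to 0.995. Tyms-ps is a pseudogene of Tyms and shares sequence with it, so its probe may read the same RNA. Arrays share slides and genotypes, so no p-value is given for these correlations.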

How the data were processed

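Intestinal epithelial RNA of 20 mice was labelled with Cy3 and hybridised to Agilent arrays, 1 per mouse, per the labels. The design text gives 4 individual animals per genotype. The intensity used is each spot's processed signal, linear and background-subtracted by the authors' scanner software, Feature Extraction 10.7.3.1, per the file headers and the submitters' processing notes. The deposited value table holds the same signals times 1 factor per array (1.58 to 2.27), with the lowest values raised to a floor. 

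The 1639 control spots and 67 to 210 outlier spots per array were left out; 0 were saturated. A probe's repeated spots were averaged on the log2 scale, and each array's 75th percentile was subtracted. Kept were the 31576 of 41174 probes that the software called well above background on 4 or more of the 20 arrays, and the brightest probe stood for a gene, leaving 21601 features. The 39 members had 55 probes. Names were updated through RefSeq accessions (26690 probes matched, 3169 renamed); probe positions are mm9, promoters GRCm38.p6. A model of genotype means was fitted to the 20 arrays (limma 3.58.1, R 4.3.3; 2.17 prior degrees of freedom, Benjamini-Hochberg adjustment, threshold 0.05) for 7 comparisons, after a test on simulated data. Differences are folds on the log2 scale of the processed signals. The number of arrays limits the precision; replicates of a genotype correlated at r = 0.974 to 0.993 over features.

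Members and lists were chosen with earlier results of these data known. Values in every array are given for 18 members that cover the roles, for the 4 largest changes in each comparison with wild type and for members going against the rest. Alternatives were normexp (offset 50), median scaling, quantile normalization, the deposited table, no filter or 10 arrays, the mean of all probes, a trended robust moderation, the replicate number as a block (the slide, except for MyD88 knockouts), Xist as a covariate, only the 2 genotypes compared, and each array left out; Xist-high arrays alone were added after seeing the data. Deviations from the group mean correlated between wild type and Tlr4 knockout arrays of 1 number (r = 0.35, 0.21, 0.19 and 0.17). With wild type, Trif mutants gave 0.319, 0.156, 0.201 and 0.0966 and Tlr3 knockouts 0.218, 0.315, 0.0588 and -0.072. Between the mutants that shared slides r was -0.152 to 0.295, so the pairing by number was weak or absent for some arrays. Tnfrsf17, Pdgfra and Cdh5, of the marker lists, passed no filter. 1 gene that the rule took is not reported here.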

Additional observations from a re-analysis of the deposited data

Results flagged for a closer look

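In 200 tests on groups of 4 arrays (the 39 members and their array median, in 5 genotypes), 12 groups had an array far from the other 3 by Dixon's test, which chance gives in about 1 group in 20. In wild type mice array 1 was the highest for Dut (3.30), Cdc45 (-1.43) and Chaf1b (2.20). In Trif mutants array 4 was the highest for Pcna (3.94) and Gins2 (-0.92). In Tlr4 knockouts array 4 was the lowest for Rrm1 (1.87), Rrm2 (-0.47), Cdc6 (-1.63), Gins1 (-0.23) and Chaf1b (0.90). In MyD88 knockouts array 2 was the highest for Mcm5 (3.34) and Rfc3 (0.35). The values are log2 signals relative to the array's 75th percentile, and the cause was not tested.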

How the results depend on the processing

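Counts of members are those at an adjusted p under 0.05 in limma. In Trif mutants against wild type, the 37 that fell became 13 with Xist-high arrays alone and stayed between 29 and 37 in the other alternatives without a left-out array; the 1 that rose became 0 under normexp, median scaling, no filter on dim probes, the Xist covariate, the 2 genotypes alone and Xist-high arrays alone. In Tlr3 knockouts the 0 that rose, and in Tlr4 knockouts the 0 that rose, became 1 with the mean of all probes. In MyD88 knockouts the 0 that fell became 2 under median scaling and 1 with the 2 genotypes alone, where 28.9% and 11.1% of features fell. The 4 that rose there became 2 under normexp, 0 under median scaling, 21 with the Xist covariate and 10 with the 2 genotypes alone. Of all features 7.45%, 15%, 26.4% and 34.3% rose in the same order. Between Trif mutants and Tlr3 knockouts, the 10 lower became 2 under normexp, 6 under quantile normalization, 2 under median scaling and 5 with no filter. They became 0 with the Xist covariate and 1 with the 2 genotypes alone. Of all features 2.64%, 8.66%, 5.93%, 6.48%, 8.41% and 6.56% were lower in the same order. The 2 higher became 0 under normexp, 1 with no filter and 0 with the 2 genotypes alone. Against Tlr4 knockouts, the 1 higher in Trif mutants became 0 under normexp. The 32 lower in Tlr3 knockouts became 19 under normexp, where 3.8% of features were lower. In each case the cause was not tested.

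On leaving out 1 array, members lower numbered 35 to 37 (Trif mutants), 30 to 37 (Tlr3 knockouts), 0 to 0 (Tlr4 knockouts) and 0 to 0 (MyD88 knockouts) against wild type, and 2 to 26, 33 to 35 and 22 to 34 for Trif mutants against Tlr3 knockouts, Trif mutants against Tlr4 knockouts and Tlr3 against Tlr4 knockouts. Members higher numbered 0 to 1, 0 to 0, 0 to 0 and 2 to 6 against wild type, and 0 to 2, 1 to 1 and 0 to 0 between mutants. With the replicate number as a block, 36 members fell and 1 rose in Trif mutants, 35 and 0 in Tlr3 knockouts, 0 and 0 in Tlr4 knockouts and 0 and 3 in MyD88 knockouts. Of all features 16.4%, 14.5%, 3.36% and 12.1% fell in the same order. Lower and higher members were 8 and 2, 34 and 1, and 31 and 0 in the comparisons between mutants, where 11.9%, 18.2% and 14.2% of features were lower. The block moved no count of calls by over 1.5 times. For MyD88 knockouts the replicate number is not the slide, and same-numbered wild type arrays did not deviate with them (r from -0.235 to -0.0225).

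Differences of single members that were called, before or under the alternative, turned sign in 10 cases. With Xist-high arrays alone, Trif mutant minus wild type became 0.24 for Cdt1 and 0.018 for Rfc2. Trif mutant minus Tlr3 knockout became 0.050 for Cdc45, 0.094 for Pola1, 0.22 for Pole and 0.26 for Pole2 with these arrays. All of these values rest on 1 Trif mutant array. The mean of all probes gave 0.59 and 0.47 for Pola2 in Tlr3 and Tlr4 knockouts, normexp 0.26 for Orc1 between Trif mutants and Tlr3 knockouts, and median scaling -0.18 for Slbp in MyD88 knockouts. Over all members, comparisons and alternatives, 4987 values stayed on their side of the threshold, of which 4875 kept their sign and 112, called in neither fit, turned it; 332 lost the call and 92 gained one. Orc1 was limited by its signal, which was not well above background on 2 Trif mutant arrays.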
